A study of Mus musculus with 18 samples.

Results

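In all, 10 genes of the bone morphogenetic protein (BMP) pathway and its Id targets were followed through Foxm1 knockdown, angiotensin II treatment and Foxm1 overexpression in mouse heart fibroblasts. They were chosen by name, as the 10 of 18264 listed genes with the symbols Bmp4, Bmpr1a, Bmpr2, Bambi, Smad6, Grem1, Id1, Id2, Id3 and Id4. All 10 were listed in the expression table, and 9 passed the filter on low values. The exception was Grem1.

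BMP ligands such as BMP4 bring together type I and type II serine/threonine kinase receptors, which phosphorylate SMAD1, SMAD5 and SMAD9, and these enter the nucleus with SMAD4. The Id genes (inhibitor of DNA binding) are among the most direct transcriptional targets of this signal, and their helix-loop-helix proteins lack a DNA-binding basic region and hold E proteins away from DNA. In the heart the pathway is known for its roles in development and in fibroblast and valve biology, where it often acts against TGF-beta signalling.

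RNA was sequenced from mouse neonatal ventricular cardiac fibroblasts in 18 libraries, 3 in each of 6 groups. The knockdown arm had a control siRNA group (si-NC), a group with siRNA against the forkhead transcription factor gene Foxm1 (si-Foxm1), a group given angiotensin II, a peptide hormone (Ang-II), and a group given this siRNA plus angiotensin II (si-Foxm1+Ang-II). In a second arm, overexpression controls (OE-NC) stood beside cells made to overexpress Foxm1 (OE-Foxm1). The series title names the question as how Foxm1 defects in these cells act on cardiac remodeling. The labels name no genotype, strain, dose, time or overexpression vector, and do not say whether the Ang-II cells also received control siRNA. If they did not, the comparisons that use the Ang-II group, the interaction included, also hold a difference in transfection that cannot be told apart here. The labels also do not say whether replicates were separate cultures or animals. The p-values therefore measure only the spread between these libraries, which may be technical.

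Each library held 14988993 to 19343343 counted fragments. Foxm1 itself was at 9.64 to 10.4 FPKM in si-NC, 5.13 to 6.71 in si-Foxm1, 4.03 to 5.65 in Ang-II and 3.03 to 3.55 in si-Foxm1+Ang-II. It was at 15.7 to 17.1 FPKM in OE-NC and 399 to 487 in OE-Foxm1. FPKM is a fragment count scaled to gene length and library total, so levels can be set beside each other between genes. All 10 fibroblast markers were tested and none was at 0 in every library. Their summed FPKM was 3758 to 3913 in si-NC, 3272 to 3523 in si-Foxm1, 4279 to 4594 in Ang-II, 4017 to 4094 in si-Foxm1+Ang-II, 3203 to 3389 in OE-NC and 3728 to 3854 in OE-Foxm1. Markers of other cell types were present as well, and cardiomyocyte markers had the higher sum in every group. The summed FPKM of 13 cardiomyocyte markers was 13151 to 14163 in si-NC, 7170 to 7620 in si-Foxm1, 9797 to 10714 in Ang-II, 5484 to 5656 in si-Foxm1+Ang-II, 7551 to 8032 in OE-NC and 8502 to 8859 in OE-Foxm1. None of these 13 was at 0 in every library. In Ang-II, replicate 3 stood apart from its group, with a mean chi-square per gene of 5.03 and 5.46 against the other libraries. Every other pair of replicates gave 1.69 to 2.88, where counting error alone gives about 1.

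Promoters of 4 of these genes are shown because the Id genes and Smad6, known targets of BMP signalling, all fell with Foxm1 siRNA and their promoter motifs differ. Each window runs from 250 bases before the first transcribed base to 50 bases after it, 5′ to 3′ on the strand of the gene, from RefSeq on GRCm38.p6 (the authors' build was mm39). The last 50 bases therefore lie in the first exon. Id2 is at chr12:25096043-25096342 on the minus strand, Id3 at chr4:136143572-136143871 on the plus strand, Id4 at chr13:48260866-48261165 on the plus strand and Smad6 at chr9:64022010-64022309 on the minus strand. Capitals mark GGCGCC, a palindrome known as a GC-rich SMAD element, and GTCT or its reverse complement AGAC, the SMAD box.
Id2: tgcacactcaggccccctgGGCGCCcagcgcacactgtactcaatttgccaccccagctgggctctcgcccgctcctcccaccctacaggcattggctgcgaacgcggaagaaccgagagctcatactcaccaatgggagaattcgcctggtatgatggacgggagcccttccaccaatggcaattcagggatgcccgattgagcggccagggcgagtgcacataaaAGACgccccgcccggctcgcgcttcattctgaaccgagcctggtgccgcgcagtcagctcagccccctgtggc
Id3: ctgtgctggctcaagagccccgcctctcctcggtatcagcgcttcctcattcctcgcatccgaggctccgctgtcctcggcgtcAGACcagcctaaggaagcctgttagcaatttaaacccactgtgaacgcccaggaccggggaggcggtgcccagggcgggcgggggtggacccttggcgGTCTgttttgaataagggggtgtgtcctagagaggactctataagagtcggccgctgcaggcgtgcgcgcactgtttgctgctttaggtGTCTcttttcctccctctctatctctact
Id4: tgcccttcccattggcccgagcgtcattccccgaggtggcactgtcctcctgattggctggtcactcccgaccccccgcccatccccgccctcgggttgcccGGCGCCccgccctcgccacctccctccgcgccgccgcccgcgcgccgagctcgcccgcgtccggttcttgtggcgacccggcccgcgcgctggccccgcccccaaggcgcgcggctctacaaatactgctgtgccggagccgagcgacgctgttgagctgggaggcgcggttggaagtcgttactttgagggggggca
Smad6: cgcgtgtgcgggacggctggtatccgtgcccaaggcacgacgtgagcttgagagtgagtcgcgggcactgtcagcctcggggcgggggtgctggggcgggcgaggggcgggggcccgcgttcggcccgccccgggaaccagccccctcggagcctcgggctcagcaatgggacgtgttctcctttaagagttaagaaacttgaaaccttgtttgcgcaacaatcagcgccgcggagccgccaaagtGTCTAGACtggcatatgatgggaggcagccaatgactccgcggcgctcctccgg
Id2 has GGCGCC at -231, counted from the first transcribed base as 0 to the leftmost base of the match, and a single SMAD box at -23. Id3 has no GGCGCC but has 3 SMAD boxes, at -166, -68 and 21. Id4 has GGCGCC at -148 and no SMAD box. In Smad6, a SMAD box at -4 is followed directly by its reverse complement at 0, which makes the palindrome GTCTAGAC across the start.

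Promoter windows were used for 8 of the 10 genes, Id2, Id3, Id4, Bmp4, Bmpr1a, Bmpr2, Smad6 and Grem1, and searched on both strands. Id1 had no window among the promoters used and Bambi was left out of the search, so the motif counts do not cover them. GGCGCC was in 5 of these 8 (Id2, Id4, Bmpr1a, Bmpr2 and Grem1) and in 11.9% of all 32851 promoters of the same length. GTCT was in 6 of 8 and in 88.0% of all promoters. The joined form GTCTAGAC, looked for after it was seen in Smad6, was in 0.213% of all promoters and in none of the other 7. The forkhead core TGTTTA was in none of the 8 and in 13.4% of all promoters. The cell cycle element TTTGAA was in Id3 alone, at -62, and in 17.9% of all promoters. No match of a searched motif overlapped a match of another in these windows. GC content was 59.3% to 79.3% in the 8 windows and 52.7% at the median of all promoters, where the middle range of all promoters between the lower and upper quartile was 45.7% to 61.7%, and GGCGCC holds only G and C. These matches describe letters and do not show binding.

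**Figure D1:**
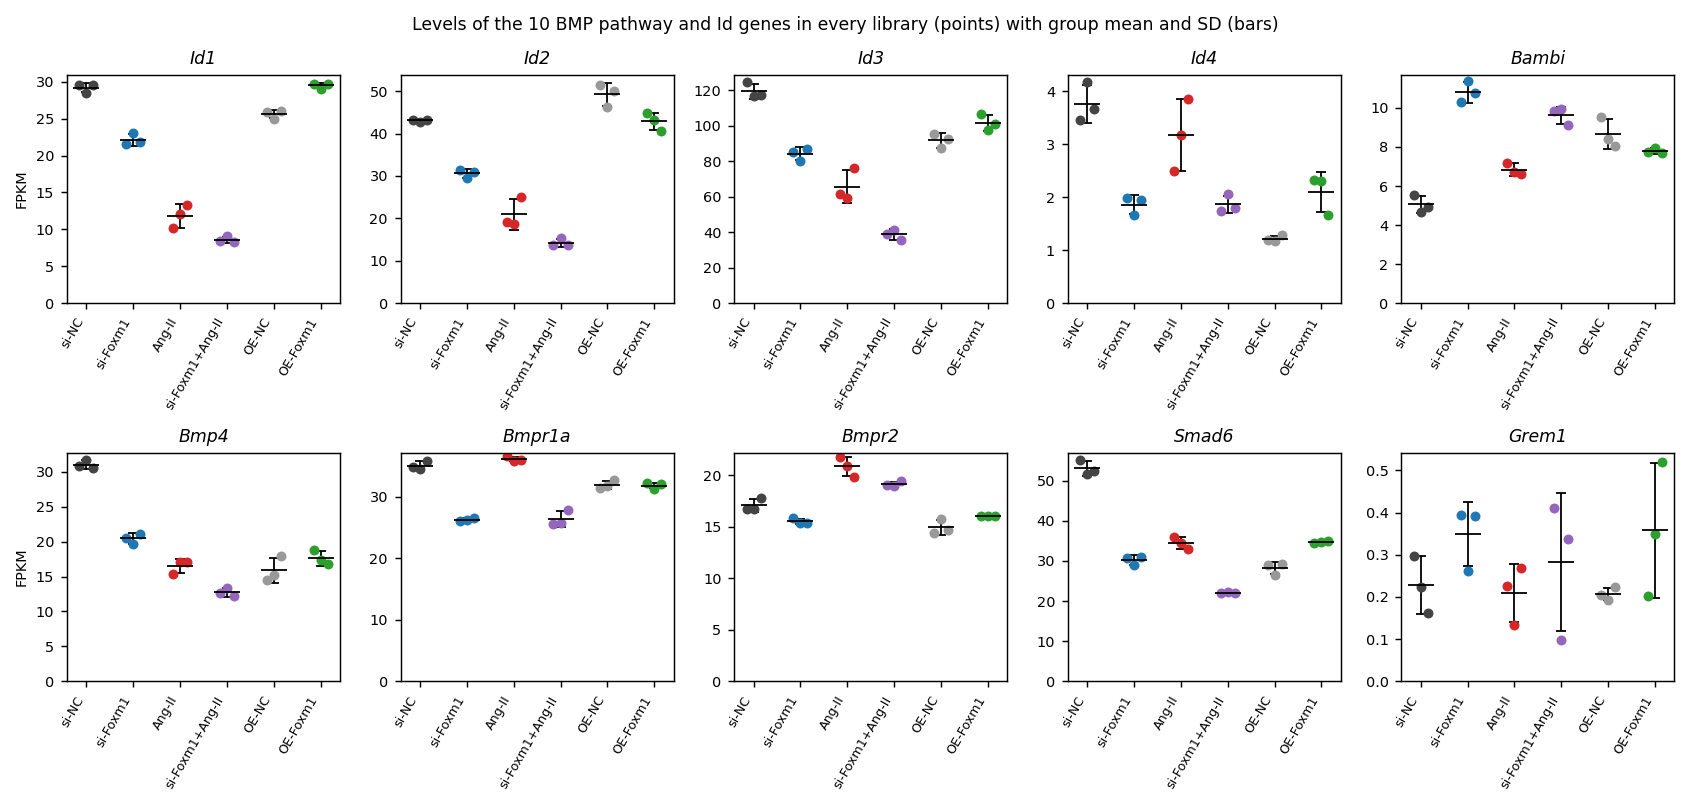
FPKM (vertical axes, starting at 0) of each of the 10 genes in the 6 groups (horizontal axes), with 1 point per library and bars for the mean and SD of 3 libraries. Id1, Id2, Id3 and Bmp4 step down from si-NC to si-Foxm1, Ang-II and si-Foxm1+Ang-II, while Bambi is lowest in si-NC and highest in si-Foxm1.

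The comparisons were made with limma on log2(FPKM + 1) over all tested genes, with p-values adjusted by Benjamini-Hochberg and a call at an adjusted p under 0.05. Each fold change compares 3 libraries with 3 on this scale, is given ± its standard error, and understates changes of genes at low FPKM. Foxm1 siRNA lowered most of the tested genes of the set and raised Bambi. Without angiotensin, 8 of the 9 were lower and 1 was higher, with a median of -0.48 against 0.11 over all 11180 tested genes. Over all genes, 17.2% were called lower and 48.5% higher. With angiotensin, in other libraries, the siRNA again gave 8 lower and 1 higher, with a median of -0.44 against 0.09, where 17.4% of all genes were called lower and 44.0% higher. The share of lower calls among the 9 was far above that of all genes in each. This describes these 9 and is no test of the list, since the genes were chosen with earlier results of these data known.

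Angiotensin gave a more divided picture. Against si-NC, 5 of the 9 were lower and 2 higher, with a median of -0.61 against -0.03 over all genes, and 29.2% and 15.2% of all genes were called lower and higher. In the presence of the Foxm1 siRNA, 6 were lower and 1 was higher, with a median of -0.43 against -0.07, where the shares over all genes were 34.6% and 12.9%. The interaction, which is the siRNA effect with angiotensin minus that without it, was called for 1 of 9, downwards. Among all genes 0.519% were called downwards and 0.403% upwards. Foxm1 overexpression raised 4 of 9 and lowered 1, with a median of 0.14 against -0.00 over 11259 genes. There 27.1% of all genes were called higher and 28.0% lower.

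The split of all genes into higher and lower depended on the scaling between libraries. For si-Foxm1 against si-NC it was 5418 higher and 1924 lower as given, 2966 and 3273 with median-of-ratios scaling, and 3430 and 2975 with quantile normalization. For si-Foxm1+Ang-II against Ang-II it was 4918 and 1942 as given, 3074 and 3130 with median-of-ratios scaling, and 3330 and 2889 with quantile normalization. For Ang-II against si-NC, 1702 higher and 3268 lower became 2311 and 2555, or 2679 and 2292. For si-Foxm1+Ang-II against si-Foxm1, 1441 and 3873 became 2299 and 2432, or 2425 and 2331. The fold changes of the set shifted with this choice as well. With median-of-ratios scaling, the median siRNA effect on the 9 without angiotensin went from -0.48 to -0.61. That of all genes went from 0.11 to 0.0012, and the effect on Bmpr2 from -0.13 to -0.25. The calls of the set were less exposed. All of them kept their direction under these scalings, and the call for Bambi between si-Foxm1+Ang-II and si-Foxm1 was the only one lost. The comparisons share libraries, since si-NC serves si-Foxm1 and Ang-II alike and Ang-II enters 2 of them, so their values are given side by side and not as support for each other. The siRNA effects without and with angiotensin share none.

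**Figure D2:**
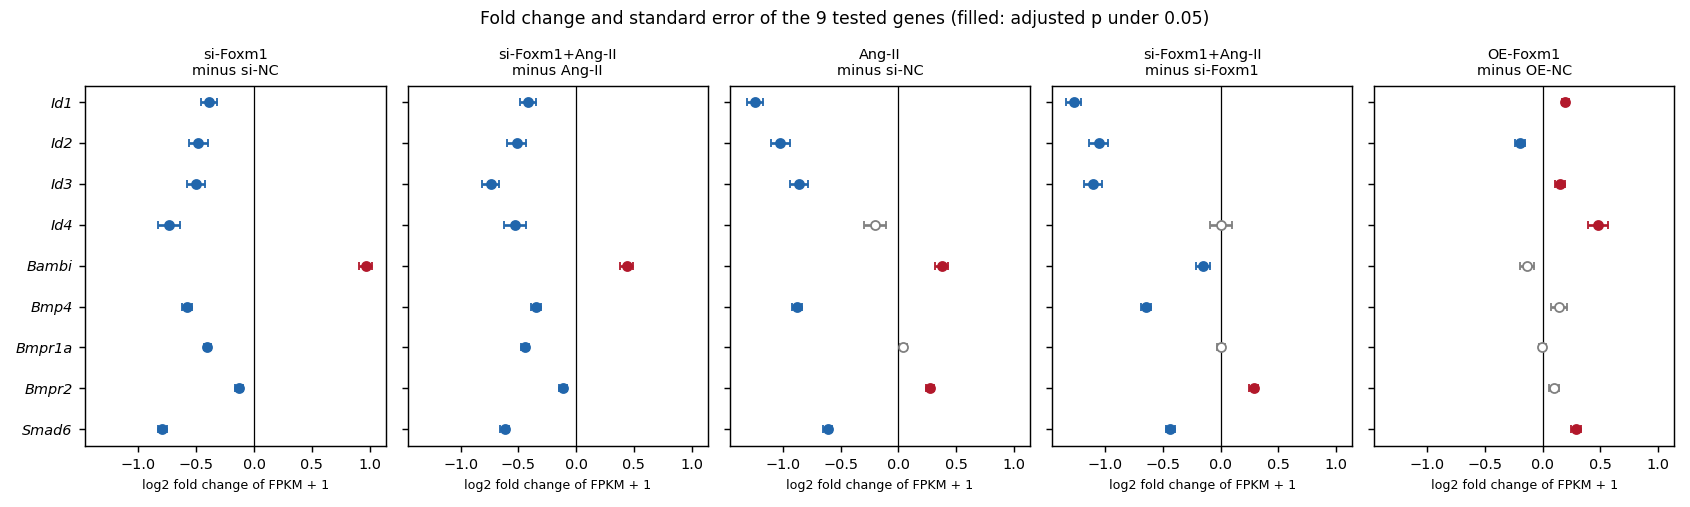
Log2 fold change of FPKM + 1 (horizontal axes) with its standard error for the 9 tested genes in 5 comparisons, where filled points have an adjusted p under 0.05 (red higher, blue lower) and open points do not. Bambi is the only gene to the right of 0 in the si-Foxm1 and si-Foxm1+Ang-II minus Ang-II panels.

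In the knockdown arm the ligand gene Bmp4 fell with the siRNA and with angiotensin, each without and with the other. Its level was 30.8, 31.7 and 30.6 FPKM in si-NC, 20.5, 19.7 and 21.1 in si-Foxm1, 15.3, 17.0 and 17.1 in Ang-II, and 12.6, 13.4 and 12.2 in si-Foxm1+Ang-II. These 4 groups did not overlap, and the combined group was the lowest. The siRNA lowered Bmp4 by 0.58 ± 0.05 on the log2 scale without the hormone (adjusted p = 1.76e-07) and by 0.35 ± 0.05 with it (2.08e-05). Angiotensin lowered it by 0.88 ± 0.05 (adjusted p = 1.07e-08), a 1.88-fold lower mean. With the siRNA present, the hormone lowered it by 0.64 ± 0.05 (adjusted p = 1.54e-07). In the overexpression arm Bmp4 was at 14.5, 15.2 and 17.9 FPKM in OE-NC and 18.8, 17.3 and 16.7 in OE-Foxm1, and the groups overlapped. That difference of 0.14 ± 0.07 was not called (adjusted p = 0.105), and it turned on single control libraries. It was 0.23 and called without OE-NC replicate 3 (adjusted p = 0.00571) and 0.08 and not called without OE-NC replicate 1 (0.337).

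The receptor genes behaved differently from each other. Bmpr1a encodes a type I receptor, the kinase that phosphorylates the SMAD proteins. Its level was 34.9, 34.5 and 35.8 FPKM in si-NC, 26.1, 26.3 and 26.5 in si-Foxm1, 36.6, 35.9 and 36.0 in Ang-II, and 25.6, 25.7 and 27.8 in si-Foxm1+Ang-II. The libraries with the Foxm1 siRNA were all below those without it, whether or not the hormone was there. The siRNA effect was -0.40 ± 0.03 without angiotensin (adjusted p = 2.51e-07) and -0.44 ± 0.03 with it (1.16e-07). The hormone's own effects were 0.04 ± 0.03 without the siRNA (adjusted p = 0.325) and 0.0050 ± 0.03 with it (0.917). Overexpression gave 31.4, 31.7 and 32.7 FPKM in OE-NC and 32.2, 31.3 and 32.0 in OE-Foxm1, which overlapped, with a difference of -0.0046 ± 0.03 (adjusted p = 0.916).

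Bmpr2 encodes the type II receptor that activates the type I kinases. It was at 16.7, 16.7 and 17.8 FPKM in si-NC, 15.8, 15.4 and 15.4 in si-Foxm1, 21.7, 20.9 and 19.9 in Ang-II, and 19.1, 19.0 and 19.4 in si-Foxm1+Ang-II. The hormone raised it, by 0.27 ± 0.04 without the siRNA (adjusted p = 4.60e-05) and 0.29 ± 0.04 with it (3.02e-05), and the groups did not overlap. The siRNA effects were smaller, -0.13 ± 0.04 (adjusted p = 0.00747) and -0.12 ± 0.04 (0.016). The second of these was not called without Ang-II replicate 1 (-0.09, adjusted p = 0.0796). Bmpr2 was at 14.4, 15.8 and 14.7 FPKM in OE-NC and at 16.0 in all 3 OE-Foxm1 libraries, a difference of 0.10 ± 0.04 that was not called (adjusted p = 0.0694). It was called without OE-NC replicate 2 (0.13, adjusted p = 0.0183), and under quantile normalization, a fit of all 6 groups and a fit of recovered counts, with adjusted p of 0.028, 0.038 and 0.0168.

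Bambi encodes a pseudoreceptor that resembles a type I receptor but lacks the kinase domain and dampens TGF-beta and BMP signalling. In the siRNA comparisons, without and with the hormone, it moved against the other tested genes. It was at 5.55, 4.68 and 4.94 FPKM in si-NC, 10.3, 11.4 and 10.8 in si-Foxm1, 7.20, 6.70 and 6.63 in Ang-II, and 9.83, 9.94 and 9.13 in si-Foxm1+Ang-II. None of these 4 groups overlapped, and every library with the Foxm1 siRNA was above every library without it. The siRNA raised Bambi by 0.96 ± 0.06 without the hormone (adjusted p = 1.02e-08), a 2.14-fold higher mean, and by 0.44 ± 0.06 with it (1.70e-05), a 1.41-fold higher mean. Angiotensin raised it by 0.37 ± 0.06 without the siRNA (adjusted p = 1.08e-04). With the siRNA present the hormone effect was -0.15 ± 0.06 (adjusted p = 0.04). That last call was lost without filter (adjusted p = 0.0678), with quantile normalization (-0.07, 0.348), with median-of-ratios scaling (-0.09, 0.23), and when any of 4 single libraries was left out. Those were si-Foxm1+Ang-II replicate 1 (-0.17, adjusted p = 0.0574) or 3 (-0.12, 0.151) and si-Foxm1 replicate 2 (-0.12, 0.15) or 3 (-0.15, 0.0751).

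The siRNA effect on Bambi was smaller with angiotensin than without it by 0.53 ± 0.08 on the log2 scale (interaction -0.53, adjusted p = 0.00778). This held when each library was left out in turn, with -0.58 to -0.48 and adjusted p of 0.00447 to 0.0267. For the other 8 tested genes the interaction ran from -0.24 ± 0.11 for Id3 to 0.23 ± 0.06 for Bmp4, with adjusted p of 0.121 to 0.941, which does not show that the effects were alike. Without Ang-II replicate 3 the interaction of Id3 was -0.13 (adjusted p = 0.427) and that of Id4, 0.21 with all libraries, was 0.32 (0.203). Without Ang-II replicate 1 that of Id4 was 0.08 (adjusted p = 0.796). Unadjusted p was 0.00318 for Bmp4, 0.00610 for Smad6 and 0.0435 for Id3. In the overexpression arm Bambi was at 9.53, 8.43 and 8.03 FPKM in OE-NC and 7.73, 7.95 and 7.69 in OE-Foxm1. The OE-Foxm1 libraries were all lower, but the difference of -0.13 ± 0.06 was not called (adjusted p = 0.068). It was called in a fit of recovered counts (-0.15, adjusted p = 0.0228) and without OE-NC replicate 3 (-0.18, adjusted p = 0.0253), and it was -0.07 without OE-NC replicate 1 (adjusted p = 0.254).

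**Figure D3:**
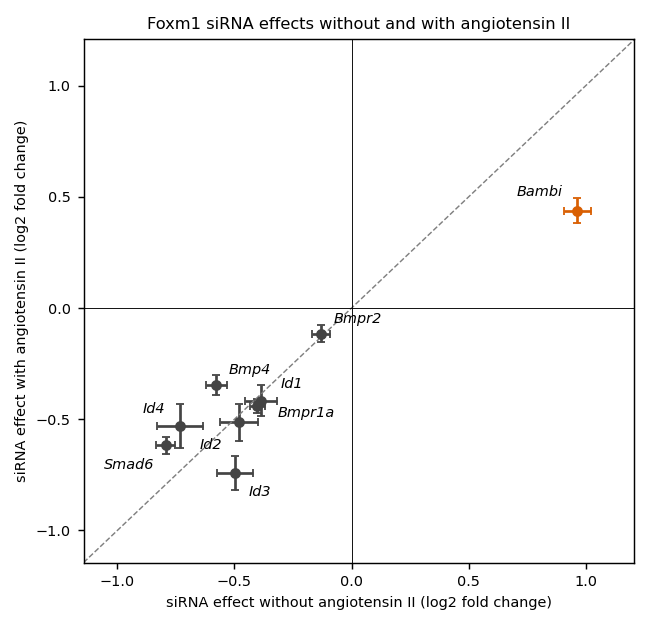
Effect of Foxm1 siRNA on 9 genes as a log2 fold change of FPKM + 1, without angiotensin II (horizontal axis) and with it (vertical axis), with standard errors and a dashed line of equal effects. Bambi lies at 0.96 and 0.44, apart from the line, and the other 8 genes lie at or below -0.12 on each axis.

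Smad6 encodes an inhibitory SMAD that is itself switched on by BMP signalling and feeds back on the receptors. It was at 55.3, 51.8 and 52.4 FPKM in si-NC, 30.7, 28.9 and 31.1 in si-Foxm1, 35.9, 34.6 and 32.9 in Ang-II, and 22.1, 22.3 and 21.9 in si-Foxm1+Ang-II. The 4 groups did not overlap, and si-NC was well above the others. The siRNA lowered Smad6 by 0.79 ± 0.04 (adjusted p = 1.78e-09), a 1.76-fold lower mean, and by 0.62 ± 0.04 in the presence of the hormone (1.97e-08). Angiotensin lowered it by 0.61 ± 0.04 (adjusted p = 5.06e-08), and by 0.43 ± 0.04 with the siRNA present (1.10e-06). In the overexpression arm it was at 29.0, 26.5 and 29.3 FPKM in OE-NC and 34.5, 34.6 and 35.0 in OE-Foxm1. The OE-Foxm1 libraries were all higher, by 0.29 ± 0.04 (adjusted p = 1.76e-04).

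Grem1 encodes gremlin 1, a secreted antagonist that binds BMP ligands. It was at 0.0987 to 0.520 FPKM, from 3 to 15 counts in a library, and the ranges of neighbouring groups overlapped. It was below the filter of 1 FPKM. With a filter of 0.1 FPKM its differences ran from -0.08 to 0.16 and none was called, with adjusted p of 0.116 to 0.89, and a change was not detectable at this depth.

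The Id genes are known transcriptional targets of the pathway, whose activity was not measured here. Id3 was the most abundant of the 4 in every group and Id4 the least, and Id3 made up 54.6% to 64.6% of their summed FPKM. The sum was 196 ± 4.6 FPKM (SD, n = 3) in si-NC, 139 ± 3.9 in si-Foxm1, 102 ± 14.5 in Ang-II and 63.4 ± 4.2 in si-Foxm1+Ang-II. It was 168 ± 7.4 in OE-NC and 176 ± 6.3 in OE-Foxm1. In the knockdown arm the order was thus si-NC, si-Foxm1, Ang-II and si-Foxm1+Ang-II, and the ranges of the sum did not overlap.

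Id1 showed the largest response to angiotensin of the 9 tested genes. It was at 29.5, 28.6 and 29.6 FPKM in si-NC, 21.5, 23.0 and 21.8 in si-Foxm1, 10.1, 12.04 and 13.3 in Ang-II, and 8.36, 9.06 and 8.31 in si-Foxm1+Ang-II. No group overlapped another, and all libraries with the hormone were below all those without it. Angiotensin lowered Id1 by 1.24 ± 0.07 (adjusted p = 1.67e-08), a 2.47-fold lower mean, and by 1.27 ± 0.07 with the siRNA present (1.57e-08). The siRNA effect was -0.39 ± 0.07 without the hormone (adjusted p = 2.39e-04) and -0.42 ± 0.07 with it (1.45e-04). Overexpression raised Id1 from 25.9, 25.0 and 26.0 FPKM to 29.8, 29.1 and 29.7, by 0.20 ± 0.03 (adjusted p = 5.00e-04).

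Id2 was at 43.3, 42.8 and 43.1 FPKM in si-NC, 31.3, 29.5 and 30.9 in si-Foxm1, 19.1, 18.6 and 25.1 in Ang-II, and 13.7, 15.3 and 13.7 in si-Foxm1+Ang-II. The groups were again apart, although Ang-II replicate 3 stood above the other Ang-II libraries. The hormone effect was -1.02 ± 0.08 (adjusted p = 4.01e-07), and -1.05 ± 0.08 with the siRNA present (3.58e-07). The siRNA effect was -0.48 ± 0.08 (adjusted p = 1.70e-04), and -0.51 ± 0.08 in the presence of the hormone (1.08e-04). Id2 was the only gene of the set called lower in OE-Foxm1. It was at 51.5, 46.3 and 50.05 FPKM in OE-NC and 44.7, 43.2 and 40.7 in OE-Foxm1, which did not overlap, with a difference of -0.20 ± 0.05 (adjusted p = 0.00455). Id2 was thus lower with knockdown and with overexpression, each against its own control.

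Id3 was at 124, 117 and 117 FPKM in si-NC, 85.4, 80.1 and 87.1 in si-Foxm1, 61.6, 59.1 and 76.1 in Ang-II, and 39.0, 41.4 and 35.6 in si-Foxm1+Ang-II. The groups did not overlap. Its siRNA effect was -0.50 ± 0.08 without the hormone (adjusted p = 7.31e-05) and -0.74 ± 0.08 with it (2.37e-06). The hormone effect was -0.86 ± 0.08 (adjusted p = 1.02e-06), and -1.10 ± 0.08 with the siRNA present (1.33e-07). From si-NC to the combined group the mean fell from 119 to 38.7 FPKM. Overexpression moved it from 95.6, 87.2 and 92.2 FPKM to 107, 97.3 and 101, by 0.15 ± 0.04 (adjusted p = 0.0119). That call was lost without OE-Foxm1 replicate 1 (0.11, adjusted p = 0.0531) and in a fit of all 6 groups (adjusted p = 0.0887).

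Id4 followed the siRNA and not clearly the hormone. It was at 3.46, 4.17 and 3.67 FPKM in si-NC, 1.98, 1.66 and 1.94 in si-Foxm1, 2.50, 3.17 and 3.85 in Ang-II, and 1.75, 2.05 and 1.80 in si-Foxm1+Ang-II. The Ang-II range overlapped that of si-NC, and the groups with the siRNA overlapped each other. The siRNA lowered Id4 by 0.73 ± 0.10 (adjusted p = 2.19e-05), a 2.02-fold lower mean, and by 0.53 ± 0.10 with the hormone (3.88e-04). The hormone effect was -0.20 ± 0.10 (adjusted p = 0.115), but it was -0.32 and called without Ang-II replicate 3 (adjusted p = 0.00914) and -0.08 without Ang-II replicate 1 (0.49). With the siRNA present it was 0.0036 ± 0.10 (adjusted p = 0.98). In the overexpression arm Id4 was at 1.20, 1.17 and 1.28 FPKM in OE-NC and 2.33, 2.31 and 1.66 in OE-Foxm1. All OE-Foxm1 libraries were higher, by 0.48 ± 0.09 (adjusted p = 8.89e-04), a 1.73-fold higher mean. Counts of Id4 went down to 71 in a library.

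Ang-II replicate 3 was the highest of its group for all 4 Id genes, and it also had the most Foxm1, 5.65 FPKM against 4.03 and 4.23. Without it, the hormone effects were -1.33 for Id1, -1.15 for Id2 and -0.97 for Id3, and the siRNA effects in the presence of the hormone were -0.33, -0.38 and -0.63, all still called. The part of this library in the remaining differences was not tested.

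The order of group means over all 18 libraries differed between the genes, though some neighbouring groups overlapped. Within the knockdown arm, Id1, Id2, Id3 and Bmp4 shared the order si-NC, si-Foxm1, Ang-II and si-Foxm1+Ang-II. Id1 was highest in OE-Foxm1 and si-NC, at 29.5 and 29.2 FPKM on average, which overlapped, and Id2 was highest in OE-NC at 49.3, above si-NC at 43.1. Id3, Id4, Bmp4 and Smad6 were highest in si-NC, Bmpr1a and Bmpr2 in Ang-II, and Bambi in si-Foxm1. The combined group was the lowest for Id1, Id2, Id3, Bmp4 and Smad6. OE-NC was lowest for Id4 and, overlapping si-Foxm1, for Bmpr2. The controls of the arms differed, with Id4 at 1.21 FPKM in OE-NC and 3.76 in si-NC, Smad6 at 28.3 and 53.1, Bmp4 at 15.9 and 31.0, and Bambi at 8.67 and 5.06. The arm and the kind of control cannot be told apart here, and no test was made across them.

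Other genes of the pathway were described from 6 lists of 67 genes. Their counts stand against the shares of all genes given above, which were 48.5% higher and 17.2% lower for the siRNA, 44.0% and 17.4% for the siRNA with the hormone present, and 15.2% and 29.2% for angiotensin. Among 12 further ligands, 4 were tested. Bmp10, a ligand made in heart muscle, was at 6.75 ± 0.35 FPKM (SD, n = 3) in si-NC, 1.51 ± 0.066 in si-Foxm1, 2.41 ± 0.55 in Ang-II and 0.614 ± 0.26 in si-Foxm1+Ang-II. It fell by 1.63 ± 0.11 with the siRNA (adjusted p = 4.65e-08) and by 1.20 ± 0.11 with angiotensin (1.59e-06). Gdf6, a ligand of the same superfamily, was the most abundant of those named, at 66.7 ± 1.8 FPKM in si-NC, 59.5 ± 4.1 in si-Foxm1, 92.5 ± 5.3 in Ang-II and 107 ± 2.4 in si-Foxm1+Ang-II. Its siRNA effect was -0.16 without the hormone and 0.20 with it, and this difference was called (0.37 ± 0.07, adjusted p = 0.0216). OE-Foxm1 raised it from 48.5 ± 2.6 to 69.5 ± 0.96 FPKM (0.51 ± 0.04, adjusted p = 2.83e-06). Bmp2, a close relative of Bmp4, did not exceed 0.783 FPKM in any library. Of the 4 tested ligands, the siRNA lowered 3 and raised 0 without the hormone, and lowered 1 and raised 1 with it, with medians of -0.20 and -0.08.

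Among 10 further receptors and co-receptors, 8 were tested. The siRNA raised 4 and lowered 1 without the hormone and raised 4 and lowered 2 with it, medians of 0.12 and 0.10 that were close to those of all genes. Acvr1, another type I BMP receptor, fell from 15.8 ± 0.36 to 8.82 ± 0.34 FPKM with the siRNA (-0.77 ± 0.06) and from 19.4 ± 1.9 to 10.3 ± 0.34 in the presence of the hormone (-0.85 ± 0.06). Hjv, the BMP co-receptor hemojuvelin, rose from 14.1 ± 0.71 to 27.8 ± 1.4 FPKM (0.94 ± 0.04) and from 10.3 ± 0.097 to 23.8 ± 0.47 (1.14 ± 0.04). Adjusted p was 6.91e-08 and 2.90e-08 for Acvr1 and 8.39e-10 and 1.47e-10 for Hjv. The siRNA lowered 2 type I receptor genes, Bmpr1a and Acvr1, and raised Hjv and Bambi. A further type I receptor gene, Acvrl1, was not called, with -0.08 without the hormone (adjusted p = 0.272) and 0.01 with it (0.904). Acvr2a, Eng and Tgfbr3 were also raised by the siRNA. Their effects were 0.29, 0.21 and 0.24 without the hormone and 0.19, 0.30 and 0.18 with it. Angiotensin raised 1 and lowered 4 of the 8, among them Acvrl1, the endothelial type I receptor ALK1, which went from 29.8 ± 0.15 to 16.9 ± 2.2 FPKM (-0.79 ± 0.06, adjusted p = 4.75e-07). Bmpr1b did not exceed 0.162 FPKM in any library.

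All 11 further SMAD transducers and regulators were tested, and the siRNA raised 4 and lowered 4 without the hormone and raised 6 and lowered 4 with it. The medians, 0.08 and 0.09, were near the 0.11 and 0.09 of all genes. Smad7, the other inhibitory SMAD, fell from 15.8 ± 0.38 to 9.87 ± 0.47 FPKM (-0.62 ± 0.07, adjusted p = 2.30e-06) and from 17.6 ± 2.1 to 12.9 ± 0.48 with the hormone (-0.41 ± 0.07, 1.07e-04). In OE-Foxm1 it was also lower, at 13.4 ± 0.10 against 18.9 ± 1.2 FPKM (-0.46, adjusted p = 1.93e-05), whereas Smad6 was higher there. Smad9, a receptor-activated SMAD, was at 2.08 ± 0.10 FPKM in si-NC, 1.27 ± 0.084 in si-Foxm1, 1.14 ± 0.12 in Ang-II and 0.674 ± 0.0017 in si-Foxm1+Ang-II. It fell by 0.44 with the siRNA (adjusted p = 1.36e-05) and by 0.53 with angiotensin (4.49e-06).

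Secreted antagonists and modulators were mostly lower with the siRNA and mostly higher with the hormone, in comparisons that share the si-NC libraries. Of 15 listed genes 8 were tested. The siRNA lowered all 8 without the hormone, with a median of -0.31 against 0.11 over all genes, and lowered 5 and raised 0 with it. Angiotensin raised 6 and lowered 1, with a median of 0.32 against -0.03. Fstl3, a follistatin-like protein that binds activins and BMPs, was at 33.1 ± 0.32 FPKM in si-NC, 23.4 ± 1.2 in si-Foxm1, 74.1 ± 13 in Ang-II and 63.0 ± 3.4 in si-Foxm1+Ang-II. Angiotensin raised it by 1.12 (adjusted p = 6.34e-07). The most abundant of those named was Fstl1, a secreted glycoprotein of fibroblasts, at 648 ± 9.8 FPKM in si-NC, 556 ± 12 in si-Foxm1 and 858 ± 16 in Ang-II. Nog, which encodes the BMP antagonist noggin, was low, at 1.52 ± 0.25 FPKM in si-NC, 0.958 ± 0.16 in si-Foxm1 and 2.24 ± 0.31 in Ang-II, with effects of -0.37 (adjusted p = 0.00325) and 0.36 (0.00585).

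Of 10 further BMP target genes, 3 were tested in the knockdown arm and 2 in the overexpression arm. Atoh8, a bHLH factor gene induced by BMP signalling, was at 19.9 ± 1.2 FPKM in si-NC, 10.3 ± 0.95 in si-Foxm1, 9.31 ± 2.0 in Ang-II and 3.26 ± 0.38 in si-Foxm1+Ang-II. It fell by 0.89 with the siRNA (adjusted p = 1.18e-05), by 1.26 with the siRNA in the presence of the hormone (5.50e-07), and by 1.03 with angiotensin (5.38e-06). OE-Foxm1 raised it from 10.1 ± 0.86 to 16.7 ± 0.38 FPKM (0.68, adjusted p = 4.41e-06). The Ang-II range of Atoh8, 7.53 to 11.5 FPKM, enclosed that of si-Foxm1, 9.19 to 10.9, so the order of these groups was not resolved. As for Id1 and Id3 in the knockdown arm, si-NC was highest and the combined group lowest. The other tested targets did not show this: the siRNA effect was 0.09 for Tbx2 (adjusted p = 0.30) and -0.11 for Runx2 (0.18).

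The E proteins and class II bHLH factors are the partners that Id proteins bind or displace. Of 9 listed genes 7 were tested. The siRNA raised 5 and lowered 0 without the hormone, with a median of 0.21 against 0.11 over all genes, and raised 3 and lowered 2 with it. Angiotensin raised 0 and lowered 6, with a median of -0.20 against -0.03. Tcf21, a factor of epicardial cells and fibroblasts that is also among the fibroblast markers used here, fell from 133 ± 7.0 to 69.3 ± 11 FPKM with angiotensin (-0.94, adjusted p = 1.08e-06) and rose in OE-Foxm1 from 84.8 ± 4.8 to 118 ± 2.5 (0.48, 5.74e-06). Hand2, a cardiac bHLH factor gene, rose with the siRNA from 19.1 ± 0.26 to 24.8 ± 0.53 FPKM (0.36, adjusted p = 6.27e-06).

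**Figure D4:**
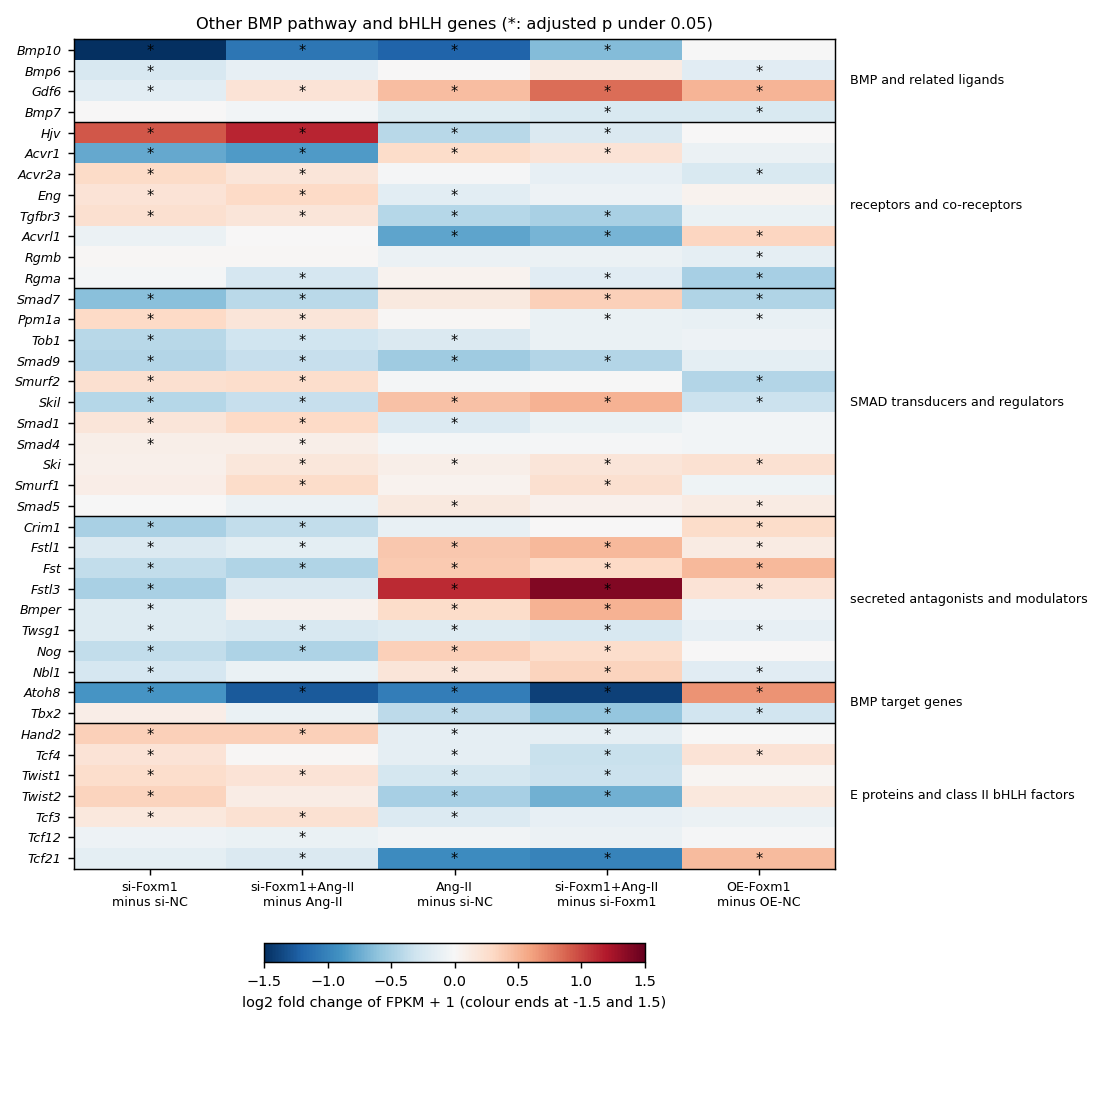
Log2 fold change of FPKM + 1 (colour, red higher and blue lower) of the 40 listed pathway genes tested in both arms (vertical axis, grouped by list) in 5 comparisons (horizontal axis), with a star where the adjusted p was under 0.05. The secreted antagonists are blue in the si-Foxm1 column, where all 8 fell, and mostly red in the angiotensin columns.

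Marker genes of all 6 cell type lists included genes that moved in the same comparisons. Of the 13 cardiomyocyte markers, all tested, the siRNA lowered 11 and raised 1 without the hormone and lowered 11 and raised 2 with it, and angiotensin lowered 12 and raised 1. Of all genes, 17.2%, 17.4% and 29.2% were lower in these comparisons and 48.5%, 44.0% and 15.2% higher, and the same shares stand behind the marker counts that follow. OE-Foxm1 raised 8 and lowered 2, where 27.1% of all genes were higher and 28.0% lower. Of the 10 fibroblast markers, the siRNA raised 1 and lowered 4 without the hormone and raised 1 and lowered 3 with it, angiotensin raised 2 and lowered 7, and OE-Foxm1 raised 8 and lowered 1. Of 9 macrophage and leukocyte markers 6 were tested, and the siRNA lowered all 6 with and without the hormone, with a summed level of 233 to 240 FPKM in si-NC, 119 to 148 in si-Foxm1, 287 to 316 in Ang-II and 117 to 137 in si-Foxm1+Ang-II. Of 9 endothelial markers 7 were tested in the knockdown arm. The siRNA raised 4 and lowered 0 of them and angiotensin raised 0 and lowered 5, with sums of 75.1 to 83.2, 93.2 to 98.0, 56.7 to 64.2 and 65.4 to 72.6 FPKM in the same order of groups. All 7 epicardial and mesothelial markers were tested, and the siRNA raised 1 and lowered 5, and angiotensin raised 0 and lowered 5. Their sum was 77.01 to 80.8 FPKM in si-NC, 63.8 to 70.1 in si-Foxm1, 56.9 to 58.2 in Ang-II and 52.0 to 54.8 in si-Foxm1+Ang-II, the order of groups of the summed Id genes, also without overlap. Of 8 smooth muscle and pericyte markers 7 were tested, and the siRNA raised 0 and lowered 6, and angiotensin raised 3 and lowered 3. Their sum was 207 to 222, 164 to 180, 255 to 282 and 220 to 229 FPKM in that order of groups. Vwf, Ptprc, Fcgr1 and Kcnj8 stayed below 1 FPKM in every library. The cardiomyocyte sum given above fell from si-NC to Ang-II, si-Foxm1 and si-Foxm1+Ang-II without overlap. That was the order of Smad6 and Bmp10 in the knockdown arm. Fewer cells of a type and less RNA per cell cannot be told apart in bulk RNA, and the part of these cells in the changes of the BMP and Id genes was not tested.

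As a description over 18 libraries that share groups, the genes whose log2 levels ran closest to each gene were listed, out of 11236. For Id1 they were Efemp1 (Pearson r of 0.985), Atp8b1 (0.983) and Slc25a11 (0.982), and for Id2 they were Idh2 (0.986), Adcy6 (0.979) and Plpp3 (0.973). Id3 ran with Fam124a (0.985), Notch3 (0.977) and Arhgef17 (0.974). Id4 ran with Limch1 (0.964), Rab10 (0.945) and Pgrmc2 (0.942). Bmp4 ran with Aqp1 (0.968), Ptprq (0.964) and Sorbs2 (0.957), Bmpr1a with Irx3 (0.980), Cdc42se2 (0.976) and Ctss (0.973), and Bmpr2 with Lrp1 (0.977), Fn1 (0.974) and Lama2 (0.972). Smad6 ran with Tssc4 (0.971), the cardiomyocyte marker Myl3 (0.968) and Col6a2 (0.951), and Bambi with Psmd4 (0.945), Nedd4 (0.937) and Prpf40b (0.935). No gene of the set was among the 3 closest of another.

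Reads of 3 of the genes could be shared with neighbours on the other strand. Exons of Id4, Bmp4 and Bmpr1a overlap opposite-strand genes over 171, 89 and 290 bases in GENCODE M21 on GRCm38. The library kit keeps strand, but the strand setting of the counting is not given in the sources used here, and without strand the reads of these genes and of their antisense partners could not be told apart.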

How the data were processed

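RNA was measured in 18 libraries, 3 per group, and groups and replicate numbers came from the sample titles, with 0 value columns lacking a sample. The deposited values are FPKM made by the authors, who used fastp, HISAT2 and HTSeq with mm39 per the submitters' processing notes. Their versions, the annotation and the gene lengths: not given in the sources used here. Libraries were stranded mRNA preparations per the labels' protocols.

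Whole counts were recovered from ratios of FPKM between libraries for all 17960 genes above 0 (within 0.02 of a whole number). They gave 14988993 to 19343343 counted fragments per library, and low genes carry more counting error. No library was a duplicate of another. Analysis used R 4.3.3 with limma 3.58.1 and Python 3.11.15 (pandas 2.3.3, numpy 2.4.6). FPKM plus 1 was put on the log2 scale. The 12 knockdown-arm libraries entered 1 limma fit and the 6 overexpression libraries another (eBayes with a trend), over genes with a mean of at least 1 FPKM, with Benjamini-Hochberg adjustment of p-values across all of them. The fits were tested on simulated data.

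The 10 genes, the pathway and marker lists and the motifs were chosen with earlier results of these data known. Named genes were the 10, Foxm1, up to 4 genes of the smallest p per pathway list and comparison, and the 3 genes most alike in level. Bmp2, Bmpr1b, Nog and the summed marker lists were named in addition after values were seen. The settings varied were the pseudocount (0.1), the filter (0.1 FPKM, or no filter), quantile and median-of-ratios scaling, all 6 groups in 1 fit, a replicate block, voom on recovered counts, and each library left out. Protein sequences were not used here.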

Additional observations from a re-analysis of the deposited data

Results flagged for a closer look

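The effect of Foxm1 siRNA on Bambi differed between cells with and without angiotensin II by a test of the difference itself. The interaction was -0.53 ± 0.08 on the log2 scale (limma, adjusted p = 0.00778), from a rise of 0.96 without the hormone to a rise of 0.44 with it. Bambi was higher with the siRNA in all 3 libraries of each siRNA group than in every library of its control group. Angiotensin also lowered Foxm1, by 0.99 ± 0.10 without the siRNA (limma, adjusted p = 2.63e-06) and by 0.69 ± 0.10 with it (6.88e-05). The siRNA lowered Foxm1 itself by 0.68 ± 0.10 without the hormone and by 0.38 ± 0.10 with it. That difference was not called (interaction 0.30 ± 0.14, limma, adjusted p = 0.345), and its part in the Bambi result was not tested.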

How the results depend on the processing

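Of 54 results (9 genes in 6 comparisons), recomputed under 8 alternatives other than leaving out a library, 423 of 432 values kept their direction and side of the threshold, 4 lost a call, 4 gained one and 1 turned in sign. That 1 was the interaction of Id1, 0.0037 with median-of-ratios scaling, and neither value was called. Leaving out a library gave 378 values, of which 358 were unchanged in this sense, 6 lost a call, 4 gained one and 10 turned in sign, all of these among uncalled results near 0. Their ranges were -0.0476 to 0.0342 for Id4 and -0.0328 to 0.0251 for Bmpr1a in si-Foxm1+Ang-II against si-Foxm1, and -0.0159 to 0.0120 for Bmpr1a in OE-Foxm1 against OE-NC. For the interaction they were -0.13 to 0.0539 for Id1, -0.11 to 0.10 for Id2 and -0.0180 to 0.0444 for Bmpr2. The genes called in each comparison never differed in number by more than 1.5 times. With a replicate block, 9, 7, 9, 7, 1 and 5 genes were called, in the order siRNA, hormone, siRNA with the hormone present, hormone with the siRNA present, interaction and overexpression, and no call changed. Whether the numbers pair the libraries was not settled. Same-numbered libraries correlated at only -0.04 to 0.18, and 4 of 15 pairs exceeded 0.1, but 10 of 15 libraries correlated best with their own number. Depth limits Grem1 (3 to 15 counts) and, less so, Id4. The cause of the changed calls was not tested.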
